A study of Mus musculus with 1086 samples.

Results

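NZO/HILtJ (NZO, New Zealand Obese) is an inbred mouse strain with polygenic obesity and, in males, a tendency to diabetes. The livers of 16 NZO males were set against those of 110 males of the 7 other strains from which the Diversity Outbred (DO) stock was bred. They were chosen by strain label, less 2 animals left out by their expression profiles as given below. The series has 1086 sequencing records of 414 animals and also holds DO mice. The 7 others were 129S1/SvImJ (129S1), A/J (AJ), C57BL/6J (B6), CAST/EiJ (CAST), NOD/ShiLtJ (NOD), PWK/PhJ (PWK) and WSB/EiJ (WSB).

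Every strain was fed a low-fat diet, called chow here, or a high-fat, high-sucrose diet from 4 weeks of age, in groups of 8 males. The labels describe the founder diets in 2 ways, as 17% against 45% of energy from fat with 34% sucrose by weight in the latter, or as 6% against 22% fat by weight, and which was fed is not settled here. NZO males were killed at 20 weeks, because many died on the high-fat diet, and all others at 26 weeks, so a difference of strain and a difference of age cannot be told apart in any comparison below. All founder males came from The Jackson Laboratory and were housed at the University of Wisconsin. The labels do not say which animals shared a litter or a cage, so p-values measure the spread between these animals.

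2 animals of the table were left out. The animal labelled B6 chow replicate 4 had an expression profile over 2000 genes that correlated with the NOD mean (r = 0.697) and not with its own strain (r = -0.082), and the animal labelled NOD high-fat replicate 3 did the reverse (0.642 to B6, -0.013 to NOD). The other animals were all nearest to their labelled strain, with r of 0.616 to 0.828 for the 16 NZO males. Sequencing depth, estimated with a separate constant for each animal, was alike: 6.18 to 11.4 M counts in NZO and 5.86 to 14.1 M in the others. Count equivalents are the deposited normalized values on the scale of an average library, and all gene levels below are in that unit, given as the lowest, median and highest animal. Differences are on the log2(count equivalents + 1) scale with their standard error, which understates the change of genes near 0. Each is NZO minus the mean of the 7 other strains with diet in the model, and adjusted p is limma's with Benjamini-Hochberg correction over 13527 genes. A gene was called at an adjusted p under 0.05.

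The liver makes, stores, burns and exports fat, and turns cholesterol into bile acids. Hepatocytes also make most plasma proteins, among them complement and the acute phase proteins, and clear drugs with cytochromes P450. In mice many of these genes differ between the sexes under the pattern of growth hormone. Type I interferon is an alarm signal that turns on a shared set of antiviral genes through sequence elements in their promoters.

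NZO livers differed broadly from the others. Of the 13527 genes, 3195 were higher in NZO (23.6% of those tested) and 2932 were lower (21.7%). Counts of list members over both diets, given below, are to be read beside these shares. More than 2-fold differences were found for 537 higher and 391 lower genes, and the median difference over all genes was 0.00 on the log2 scale. Most of these genes were not at an extreme in NZO: the strain had the highest or lowest mean of the 8 strains for 2302 (37.6%) of the called genes. In single comparisons NZO was closest to B6, with 27.1% of genes called, and farthest from the wild-derived CAST, with 60.5%. The shares against AJ, 129S1 and NOD were 34.2%, 35.2% and 39.6%, and against the wild-derived WSB and PWK 50.6% and 54.4%. Against the mean of AJ, B6, 129S1 and NOD, called the 4 classical strains here, 2467 genes were higher and 2290 lower. Counts of list members against these 4 are to be read beside those.

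A stricter rule asked for genes that differed from each of the 7 strains in the same direction, called "apart" here. It held for 187 higher genes (1.38% of those tested) and for 1.14% of the tested genes in the lower direction. Of these, 110 higher and 47 lower genes differed more than 2-fold from the mean. NZO had 2.52% of genes apart, close to AJ (2.48%), 129S1 (2.28%) and B6 (2.2%) and below NOD (3.73%), WSB (6.45%), PWK (11.7%) and CAST (16.1%). The tested genes were put in the gene order of the annotation (13071 placed), so genes not tested were skipped and may lie between neighbours. Directly beside another in this order lay 36 of 330 placed apart genes, in 17 runs, of which 15 had 1 direction. The count to be had if the 330 were placed at random was not worked out, so the 36 are no measure of clustering.

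The apart genes with the largest increases included several with low levels in most animals of the other strains. Myom3, a protein of the sarcomere's M-band, stood at 174.9, 241 and 400 count equivalents in NZO against 0, 14.2 and 74.2 in the others, with no overlap (4.27 ± 0.23, adjusted p = 3.30e-34). Unc45b, a chaperone of muscle myosin, ranged over 90.8, 115.9 and 173.2 against 0, 8.71 and 68.7 (3.50 ± 0.12, adjusted p = 2.67e-50). Both genes belong to muscle by textbook role, and each separated the NZO males from every other animal.

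A4gnt, the transferase that caps gastric mucin glycans with N-acetylglucosamine, had the largest increase among the apart genes named by the rule given under processing. Its levels were 73.4, 323 and 643 in NZO and 0, 1.09 and 165.3 in the others, where 5 animals exceeded the lowest NZO male (6.43 ± 0.19, adjusted p = 2.83e-57). PWK was the only other strain with a median above 5, at 64. The gene directly beside it, Dzip1l, a protein of the ciliary base, was also apart, at 26.9, 87.1 and 184 against 0, 5.05 and 63.9 (3.70 ± 0.19). PWK again had the next highest median, 40.4. The neighbours Unc45b and Slfn5, Ly6e and Ly6a, and Cyp3a41b and Cyp3a41a were likewise apart and higher side by side.

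Mup2, a major urinary protein that carries pheromones, stood at 74947, 246434 and 553684 in NZO. The other animals ranged over 23.7, 5588 and 76413, and 1 of them exceeded the lowest NZO male (6.15 ± 0.23, adjusted p = 2.83e-48). The strain medians of the others were highest in 129S1, at 54089, and lowest in CAST. Mup20, the male pheromone darcin, went the other way: 389, 1647 and 3030 in NZO against 32.7, 12571 and 100105 (-2.14 ± 0.23, adjusted p = 8.90e-14), with NZO below 5 strains and above AJ and CAST. Mup genes are near-identical copies, so the reads assigned to either are uncertain.

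Dct, dopachrome tautomerase of the melanin pathway, had 50.98, 148.6 and 296 count equivalents in NZO against 0, 5.25 and 68.1 (4.90 ± 0.23, adjusted p = 5.28e-39). Only 2 other animals reached the lowest NZO male. Ly6a, the surface antigen Sca-1, stood at 74.8, 320 and 1424 against 1.95, 24.4 and 1067 (3.63 ± 0.24), with 21 other animals within the NZO range. Its neighbour Ly6e was at 2154, 4005 and 6270 against 145.2, 998 and 4170 (2.01 ± 0.13). Aqp4, a water channel, and Raet1d, a ligand of the NKG2D receptor of natural killer cells, were 3.83 ± 0.21 and 4.05 ± 0.19 higher. B6 had the next highest median of Raet1d (84.8 against 112.6 in NZO), and WSB that of Aqp4.

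**Figure D1:**
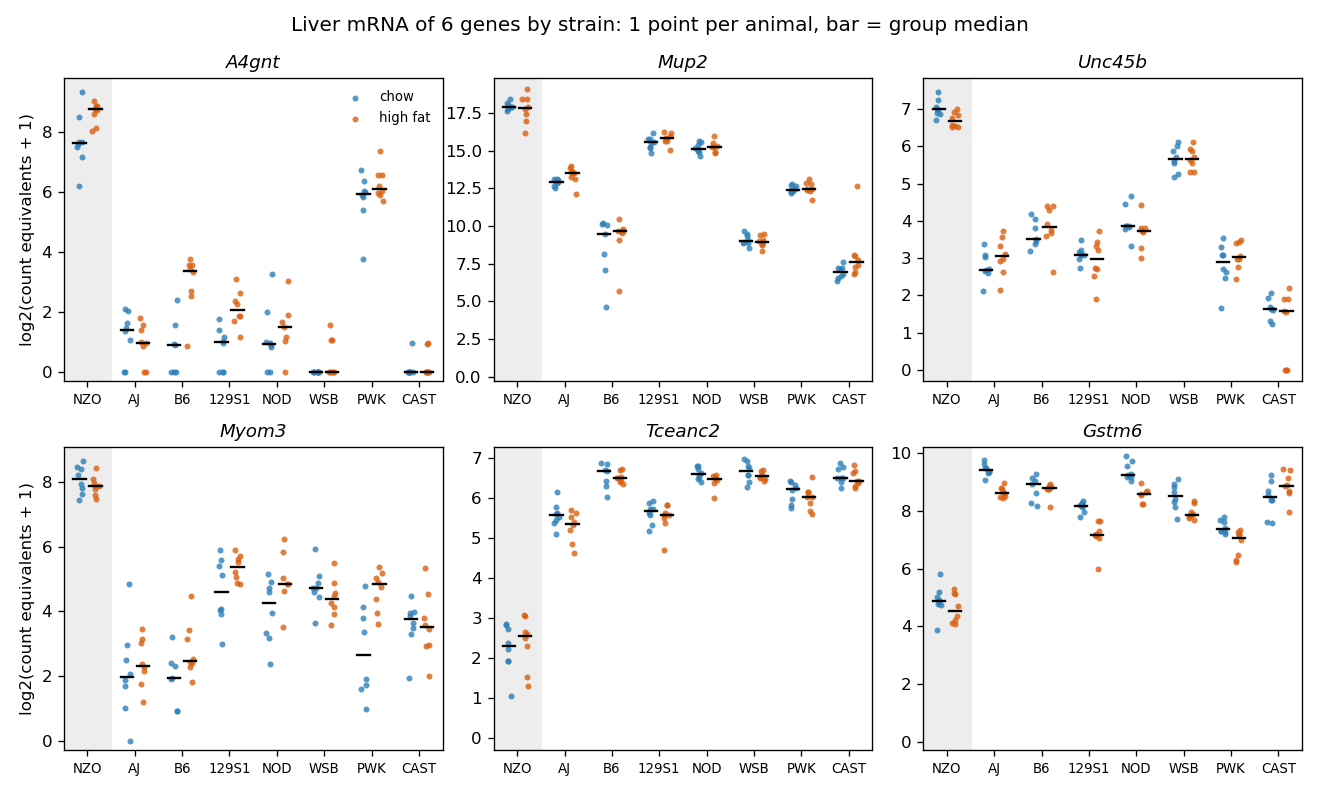
Count equivalents of 6 genes that were apart in NZO, 1 point for each animal, by strain, on a log axis. A4gnt, Mup2, Unc45b and Myom3 lay above the other strains in NZO (Unc45b and Myom3 with no overlap), and Tceanc2 and Gstm6 lay below every other animal.

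3 genes described here, Mx2, Tceanc2 and Gstm6, were lower in every NZO male than in every other animal. Overlap between single animals was read only for named genes, so its share over all genes is not known. Mx2, an interferon-induced antiviral GTPase, had 0, 2.05 and 5.61 count equivalents in NZO against 25.2, 99.3 and 1915 in the others (-5.84 ± 0.19, adjusted p = 1.30e-54). The least of the other strains by median was B6, at 52.2. Tceanc2, a protein with the TFIIS domain of a transcription elongation factor, stood at 1.09, 4.45 and 7.42 against 23.9, 83.2 and 124.9 (-3.87 ± 0.09, adjusted p = 7.01e-70). Gstm6, a glutathione transferase of the mu class, was at 13.6, 27.1 and 55.5 against 63.2, 356 and 959 (-3.59 ± 0.10, adjusted p = 5.38e-59).

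Gstm6 lies in a cluster of mu-class genes in which NZO differed in both directions. Gstm7, its neighbour, was higher in every NZO male than in any other animal, at 977, 1246 and 1717 against 162.9, 353 and 904 (1.72 ± 0.09, adjusted p = 9.80e-37). Gstm5, on the other side of Gstm7, was apart and lower (-0.74 ± 0.09). Gstm3 had 0, 2.26 and 5.77 count equivalents in NZO against 0, 162.4 and 1984 (-4.70 ± 0.23), and Gstm2 6.43, 24.1 and 52.5 against 0.877, 313 and 1298 (-3.32 ± 0.15). These last were not apart, since Gstm3 was also low in PWK (median 0.443) and CAST (5.54) and Gstm2 in PWK (15.7). Gstm1 was 2.01-fold lower in NZO, and PWK had a lower median (1914 against 2223). The mu-class genes are similar in sequence, so reads may have been split between them.

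Several other genes were apart and lower. Igfbp2, a carrier of insulin-like growth factors, was at 133.8, 464 and 1795 in NZO against 463, 2359 and 7986, a 4.63-fold lower mean (-2.21 ± 0.16, adjusted p = 4.53e-24), with 37 other animals below the highest NZO male. Scarb1, the receptor that takes up cholesterol from high-density lipoprotein, stood at 571, 840 and 1180 against 940, 1852 and 3045 (-1.15 ± 0.06, adjusted p = 7.27e-38), and 7 other animals fell below the highest NZO male. Cyp1a2, a drug-metabolizing P450 of pericentral hepatocytes, was at 494, 1149 and 2124 against 504, 2940 and 10570 (-1.36 ± 0.13). Cyp2d9, a male-biased P450, was 2.94-fold lower (1288, 3826 and 7649 against 2096, 10735 and 23425). Klf12, a transcriptional repressor, and Pik3c2b, a class II phosphoinositide kinase, were 2.46-fold and 2.60-fold lower.

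Type I interferon drives genes that bind viral RNA, block translation or tag proteins, and part of their shared control is an element with paired GAAA cores. Promoter windows of interferon genes are shown because 19 of the 21 tested genes of this list were higher in NZO. The core searched was GAAA, any 2 bases and GAAA, on both strands, in 300 bases from 250 before to 50 after each RefSeq start (GRCm38.p6, the B6 reference). Of the 21 genes, 16 matched a window that was searched, and 11 of these held the core. Windows on a single chromosome were skipped for these genes but kept in the shares that follow, so a gene counted as unmatched may have a window. The core was present in 3.44% of all 32851 windows, in 3.94% of the 9966 tested genes with a window and in 5.25% of the 2364 that were higher in NZO. The lines give the 150 bases that end before the start site, with the cores in capitals (overlapping cores run together, and a core on the other strand reads TTTC, any 2 bases and TTTC): Ifit1 at chr19:34640739-34640888 on the plus strand, with the nearer core beginning 85 bases before the start; Irgm1 at chr11:48871421-48871570 on the minus strand, at 30 and 24; and Isg15 at chr4:156200819-156200968 on the minus strand, at 78, 72 and 66.
Ifit1: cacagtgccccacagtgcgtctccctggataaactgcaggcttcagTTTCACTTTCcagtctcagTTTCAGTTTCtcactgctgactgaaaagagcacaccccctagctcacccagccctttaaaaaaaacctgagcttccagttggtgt
Irgm1: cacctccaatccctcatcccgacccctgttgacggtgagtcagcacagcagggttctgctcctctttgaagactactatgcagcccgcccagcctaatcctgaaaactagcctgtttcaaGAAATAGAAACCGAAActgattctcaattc
Isg15: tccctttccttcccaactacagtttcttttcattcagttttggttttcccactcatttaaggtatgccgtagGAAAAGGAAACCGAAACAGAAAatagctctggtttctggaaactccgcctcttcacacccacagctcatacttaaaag
A core is a match of letters and no measured binding site, and these are sequences of the reference, not of NZO.

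The interferon genes were higher in NZO as a group. Beside the 19 higher members stood 1 lower member, Mx2, and 1 that was not called, Stat2 (-0.01 ± 0.06). The median difference of the 21 was 1.19 on the log2 scale, against 0.00 over all genes tested, and NZO had the highest mean of the 8 strains for 13 of them. The median difference was 1.33 on chow and 1.13 on the high-fat diet, and no member had a called difference in its diet response. 18 members were higher on chow and 17 on the high-fat diet. Over all genes tested, 17.6% were higher and 17.1% lower on chow, and 20% were higher and 17.9% lower on high fat. Among the 19 higher members Irgm1 alone was apart, and each of the other 18 missed the test against at least 1 strain.

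The effectors of the response overlapped in single animals. Ifit1, which binds viral RNA lacking a host cap, had 54.1, 168.6 and 345 count equivalents in NZO against 5.27, 46.97 and 828 in the others (1.63 ± 0.23, adjusted p = 1.09e-09). By median the next strain was B6, at 112.3. Rsad2, viperin, stood at 52.3, 149.3 and 211 against 4.74, 45.6 and 256 (1.53 ± 0.17, adjusted p = 9.09e-14), and B6 followed at 107.1. Oas1a, an activator of RNase L, was at 18.3, 58.2 and 124.7 against 2.27, 23.7 and 196 (1.32 ± 0.16). Isg15, the ubiquitin-like modifier, was at 44.7, 103.2 and 211 against 0, 39.3 and 494 (1.47 ± 0.23, adjusted p = 2.68e-08), and Usp18, which removes it from proteins, at 62.4, 117.8 and 240 against 3.56, 35.1 and 354 (1.71 ± 0.21). In each of these 5 the NZO median was the highest of the 8 strains and the ranges of single animals overlapped.

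A regulator and a GTPase were also higher. Irf7, which amplifies interferon production, was 2.57-fold higher (178, 365 and 447 against 10.7, 141.3 and 888). PWK had a median of 361 for Irf7. Irgm1, a GTPase of defence against intracellular microbes, was at 450, 941 and 1531 against 205, 476 and 1699 (0.90 ± 0.12, adjusted p = 2.11e-10).

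Mx1 and Mx2, paralogous antiviral GTPases, differed in opposite directions. Mx1 stood at 25.7, 120 and 177 in NZO against 0, 8.36 and 183 in the others (3.23 ± 0.24, adjusted p = 7.48e-24). PWK was the next strain, with a median of 61.96, and the other 6 strains had medians from 4.21 to 13.02. Of the other animals, 22 reached the lowest NZO male, a chow animal. Slfn5, an interferon-induced gene outside the list that is directly beside Unc45b, was at 160.7, 601 and 1176 against 15.6, 70.7 and 236 (2.90 ± 0.12, adjusted p = 1.72e-42). Its response to the high-fat diet was -1.30 in NZO and -0.05 in the others, a called difference of -1.25 ± 0.25 (adjusted p = 0.000332).

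**Figure D2:**
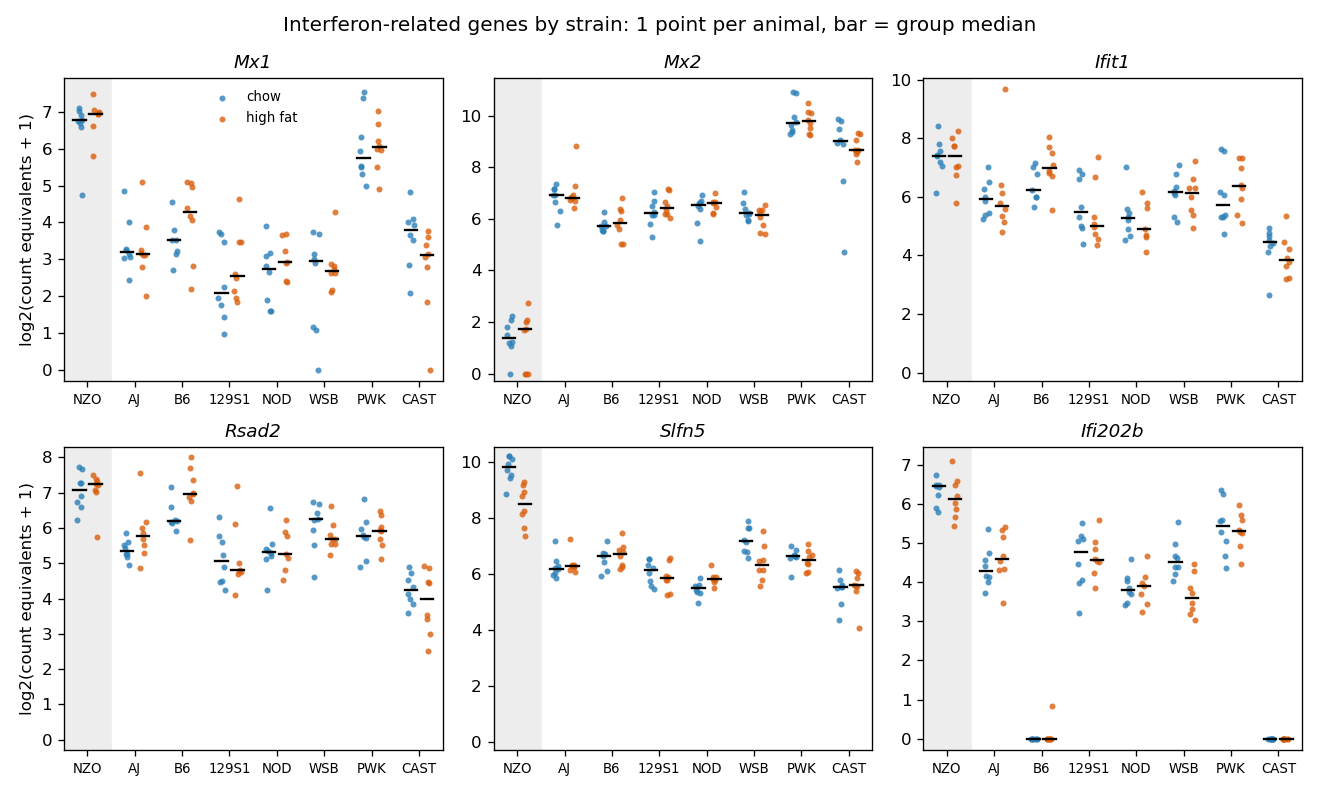
Count equivalents of 6 interferon-related genes, 1 point for each animal, by strain, on a log axis. Mx1, Ifit1, Rsad2, Slfn5 and Ifi202b had their highest medians in NZO, and Mx2 was below 6 in every NZO male and above 25 in every other animal.

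The p200 family, whose proteins sense DNA or regulate transcription, split in NZO. Ifi202b was apart and higher, at 42.5, 79.9 and 135.8 against 0, 15.5 and 80.9 (3.03 ± 0.13, adjusted p = 4.76e-43). B6 and CAST had a median of 0, and 10 other animals reached the lowest NZO male. Mndal was at 0, 1.84 and 6.96 against 0, 21.6 and 115.3 (-2.29 ± 0.17), and AJ, PWK and WSB had medians of 2 to 3.42. Ifi203 was 1.72-fold lower. Of 10 tested members 3 were higher and 3 lower, where 23.6% and 21.7% of all genes were. These genes are close copies of each other, so the split of reads among them is uncertain.

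Antigen presentation genes were higher in NZO for 9 of 15 members and lower for none, with a median of 0.38, and 5 were higher against the 4 classical strains AJ, B6, 129S1 and NOD. H2-Eb1, a class II chain, had the largest difference (129, 208 and 937 against 0, 90.5 and 983, 2.33 ± 0.22), with PWK and WSB near 0 at 5.83 and 1.10. The class I genes H2-K1 and H2-D1 were 1.61-fold and 1.63-fold higher, but H2-D1 differed by 0.08 from the 4 classical strains (adjusted p = 0.362). The strains carry different alleles of these polymorphic genes.

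Genes of fat uptake and storage were higher in NZO. Of 18 tested members, 11 were higher and none was lower, with a median difference of 0.59 against 0.00 over all genes, and 7 were higher against the 4 classical strains. Cd36, a fatty acid transporter, was apart at 309, 1866 and 3113 count equivalents against 72.9, 288 and 2906, a 4.56-fold difference (2.19 ± 0.14, adjusted p = 6.11e-27). B6 had the next highest median, 972. Vldlr, the receptor of very low density lipoprotein, was also apart, at 20.8, 85.7 and 198 against 0, 6.5 and 78.6 (3.26 ± 0.23, adjusted p = 2.03e-24). 24 other animals reached the lowest NZO male.

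Triglyceride assembly and its regulator followed. Mogat1, which makes diglyceride from monoglyceride, stood at 0.884, 31.2 and 105.7 against 0, 0.951 and 74.4 (2.91 ± 0.20, adjusted p = 1.57e-25). Pparg, the nuclear receptor of adipogenesis, was at 9.85, 69.5 and 142.8 against 0, 8.80 and 263 (2.27 ± 0.17, adjusted p = 2.25e-22), with B6 alone higher by median (76.3). Fitm1, a protein of lipid droplet formation, was 5.31-fold higher. Plin2, the main droplet coat protein, was at 1579, 4679 and 8413 against 550, 2622 and 8779 (0.76 ± 0.17), a difference that was not called against the 4 classical strains (0.40, adjusted p = 0.0696) or on chow alone (0.50, adjusted p = 0.176).

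Storage genes stood farther from the others on the high-fat diet. The median difference of the 18 was 0.13 on chow and 1.06 on the high-fat diet, with 6 members higher and 2 lower on chow and 14 higher and none lower on high fat, where the shares over all genes were 17.6% and 17.1% on chow and 20% and 17.9% on high fat. The diet response, high fat minus chow, was compared next: it was more positive in NZO than in the mean of the others for 825 genes (6.1% of those tested) and less positive for 645 (4.77%). Among the storage genes it was more positive for 10 of 18, which fell to 5 without NZO chow replicate 1 and 6 without NZO high-fat replicate 8 or with no filter on low values. Mogat1 had 0.884, 2.27 and 22.6 on chow and 39.7, 62.4 and 105.7 on high fat in NZO, against 0, 0 and 8.92 and then 0, 1.74 and 74.4 in the others. The 2 NZO groups did not overlap, and the response was 3.72 in NZO and 1.19 in the others (difference 2.53 ± 0.40, adjusted p = 4.85e-06), which was 2.00 and not called with a pseudocount of 0.1 (adjusted p = 0.117). Cidea and Cidec, which fuse lipid droplets, rose more in NZO by 2.51 ± 0.46 and 2.50 ± 0.66. Cidec was 1.39 lower than the others on chow and 1.11 higher on high fat, so that its mean over both diets did not differ (-0.14 ± 0.33, adjusted p = 0.760).

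Genes of fatty acid and triglyceride synthesis were higher for 14 of 21 members and lower for 3, with a median of 0.57. Acly, which supplies acetyl-CoA, was at 692, 1756 and 6860 against 134.4, 898 and 5311 (1.05 ± 0.15, adjusted p = 4.89e-09). Fasn, fatty acid synthase, stood at 778, 3661 and 14207 against 363, 1744 and 9303 (0.89 ± 0.16). Elovl6, which lengthens saturated chains, and Scd1, which desaturates them, were 2.02-fold and 2.06-fold higher. Neither was called on chow alone (0.55, adjusted p = 0.0622, and 0.62, adjusted p = 0.136), and B6 had a higher median of Scd1 (102322 against 50972). Pnpla3, a lipase of the droplet, was at 1.90, 27.4 and 459 against 0, 5.90 and 199 (1.71 ± 0.31), and PWK was higher, at 93.1.

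The synthesis genes also depended on diet. Their median difference was 0.07 on chow and 1.00 on the high-fat diet, with 4 members higher and 4 lower on chow and 16 higher and none lower on high fat. The chow counts of the 21 were near the shares over all genes on chow (17.6% and 17.1%). 5 members had a more positive diet response (10 without NZO chow replicate 7), where 6.1% of all genes had. Elovl5, which lengthens polyunsaturated chains, had medians of 2838 on chow and 6559 on high fat in NZO and of 2518 and 2572 in the others. Its response was 1.22 against 0.10 (difference 1.12 ± 0.23, adjusted p = 0.000652), and the difference from the others was 0.04 on chow and 1.16 on high fat. Acacb, the acetyl-CoA carboxylase that restrains fatty acid oxidation, went from a median of 925 to 1305 in NZO and from 947 to 543 in the others (difference 1.17 ± 0.31).

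In fatty acid oxidation the diet response was often different: 17 of 28 had a more positive response in NZO and none a less positive one. Over all genes these shares were 6.1% and 4.77%. Over both diets 15 were higher and none lower, with a median of 0.22, which was -0.04 on chow and 0.52 on high fat. Against the 4 classical strains 6 were higher. Cyp4a14, a fatty acid hydroxylase and target of the nuclear receptor PPARalpha, had 4.38, 65.3 and 4528 on chow and 888, 5061 and 18173 on high fat in NZO. In the others it had 0, 43.4 and 9251 and then 0.974, 44.04 and 4393. Every NZO high-fat animal lay above the median of the others, and the response was 5.43 against 0.64 (difference 4.79 ± 0.96, adjusted p = 0.000349). Cyp4a10 responded by 4.40 against 0.44. These Cyp4a genes are similar copies. Against the 4 classical strains alone the mean difference of Cyp4a14 was 1.06 and was not called (adjusted p = 0.0930).

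Other oxidation genes moved less. Cpt1a, the gate of mitochondrial fatty acid entry, had NZO medians of 3379 on chow and 5342 on high fat against 3955 and 4445 in the others. NZO high-fat animals (4800 to 6775) all lay above NZO chow animals (2410 to 4579), and the difference in response was 0.70 ± 0.17 (adjusted p = 0.00389). Acot1 and Acot2, acyl-CoA thioesterases, responded by 2.92 against 0.16 and 2.84 against 0.35. Vnn1, a pantetheinase and PPARalpha target, was at 68.1, 524 and 1217 against 0, 28.7 and 1306 (3.26 ± 0.23), with B6 close at a median of 495. Its response was 2.70 against 1.4 and did not pass the test of the difference (adjusted p = 0.0522).

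**Figure D3:**
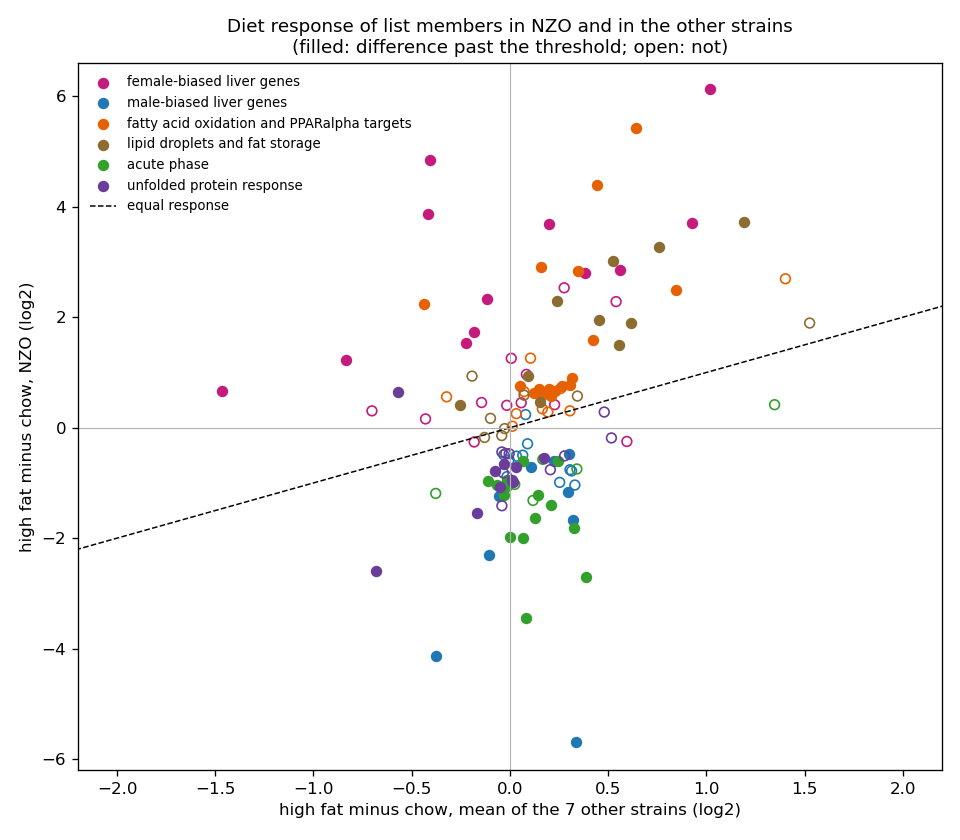
Response to the high-fat diet (log2, high fat minus chow) of each tested member of 6 gene lists, in NZO (vertical axis) against the mean of the 7 other strains (horizontal axis), with filled points for called differences. Called members lay above the line of equal response for 17 of 28 oxidation genes and 12 of 24 female-biased genes, and below it for 17 of 23 acute phase genes and 9 of 20 male-biased genes. Over all genes, 6.1% had a called response above that line and 4.77% below it.

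Cholesterol synthesis genes were higher for 12 of 23 members and lower for 1, with a median of 0.41. On chow 9 were higher, where 17.6% of all genes were. On high fat 5 were higher, near the 20% of all genes. Against the 4 classical strains 4 were higher, also near the share over all genes (2467 of 13527). No member had a called difference in its diet response. Sqle, squalene epoxidase, had medians of 1029 on chow and 64.1 on high fat in NZO and of 389 and 28.5 in the others, responses of -3.69 and -3.16. Cyp51, a demethylase of the pathway, was 1.88-fold higher in NZO (0.91 ± 0.21, adjusted p = 0.000193). Sc5d, a late desaturase, was the lower member (-0.46 ± 0.11).

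Among lipoprotein genes, 2 of 21 were higher and 5 lower (median -0.02), where 23.6% and 21.7% of all genes were. Pltp, the phospholipid transfer protein, was at 157.4, 325 and 642 against 44.7, 144.5 and 700 (1.01 ± 0.13). Scarb1, described above, and Apoa1, the main protein of high-density lipoprotein, were lower. Apoa1 stood at 17614, 28524 and 58186 against 26483, 48835 and 104618 (-0.56 ± 0.07, adjusted p = 1.10e-10). Lipc, hepatic lipase, was 1.32-fold lower, which was not called on high fat alone (-0.31, adjusted p = 0.0561).

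In glucose metabolism, 5 of 21 members were higher and 2 lower, where 23.6% and 21.7% of all genes were. Fbp1, an enzyme of gluconeogenesis, was 1.45-fold higher (4837, 8452 and 12662 against 2923, 5892 and 9745). Pck1, the first committed enzyme of that pathway, had medians of 8743 on chow and 19527 on high fat in NZO and of 20539 and 16820 in the others. It was 1.37 lower than the others on chow and 0.20 higher on high fat (adjusted p = 0.421), a difference in response of 1.57 ± 0.27 (adjusted p = 3.17e-05). Insr, the insulin receptor, was 1.21-fold higher (on high fat alone 0.19, adjusted p = 0.0692), and Irs1 and Irs2, its adaptors, did not pass the test (-0.40 and -0.38).

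**Figure D4:**
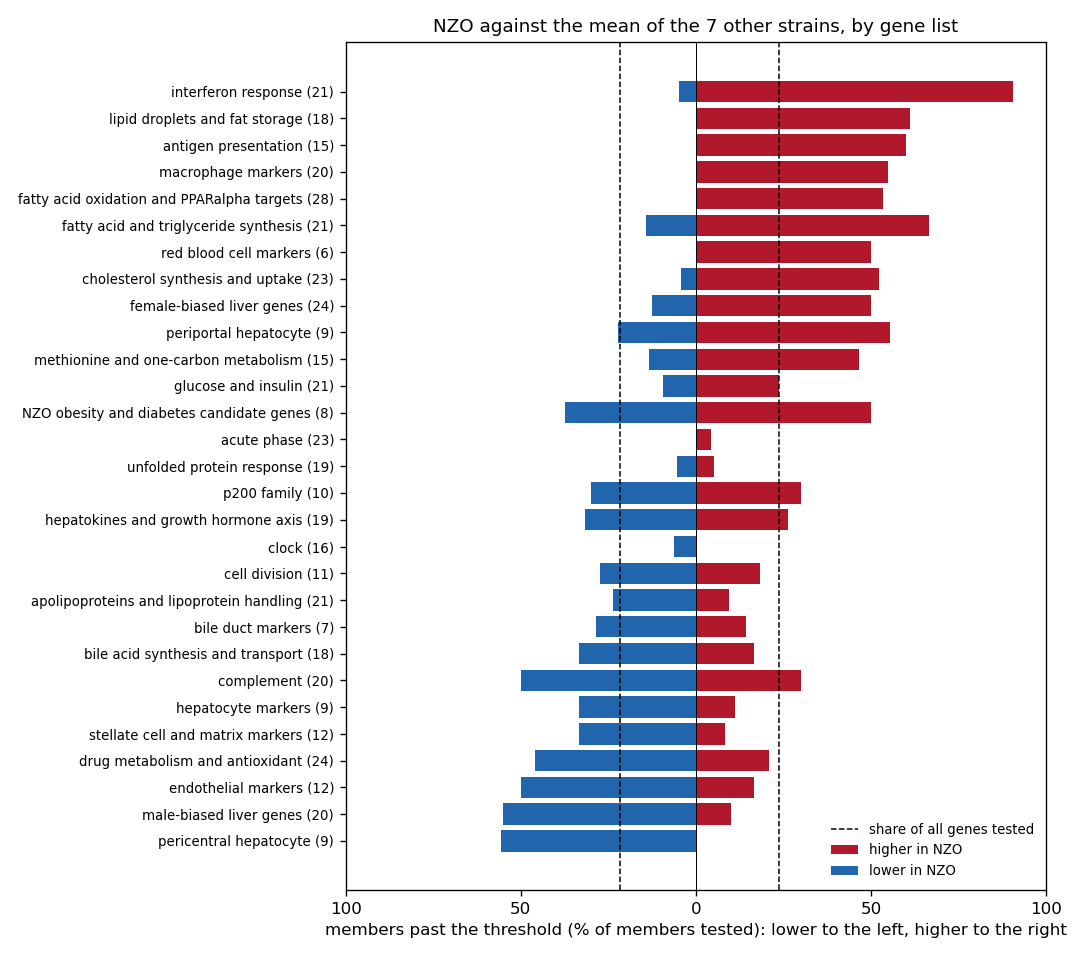
Share of tested members of each gene list that were higher (right) or lower (left) in NZO, in percent, with dashed lines at the shares over all genes tested (23.6% and 21.7%). Of the interferon list 19 of 21 members were higher, and of the male-biased list 11 of 20 were lower.

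Male liver normally expresses a set of male-biased genes under pulsed growth hormone and holds female-biased genes low. All animals here were male. Of 20 male-biased genes 11 were lower in NZO and 2 higher, with a median of -0.50. Of 24 female-biased genes 12 were higher and 3 lower, with a median of 0.70. On chow the female-biased list had 2 members higher and 6 lower, and on high fat 14 higher and 3 lower. The male-biased list had 5 higher and 7 lower on chow and none higher and 15 lower on high fat. Beside these counts stand the shares over all genes, 17.6% higher and 17.1% lower on chow and 20% higher and 17.9% lower on high fat. The medians moved in opposite directions with diet: the male-biased median was -0.19 and then -1.21, and the female-biased median -0.25 and then 2.00. The diet response was less positive in NZO for 9 male-biased genes and more positive for none. It was more positive for 12 female-biased genes and less positive for none. Over all genes it was more positive for 6.1% and less positive for 4.77%.

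Serpina1e, a male-biased antitrypsin, showed the contrast in single animals. On chow it had 22982, 163820 and 201921 count equivalents in NZO against 1877, 28406 and 124569 in the others, and on high fat 1154, 4825 and 25444 against 332, 9945 and 163670. NZO chow replicates 2, 3 and 7 were low (22982, 29363 and 24793), and the other 5 chow animals lay at 158509 or above. The response was -4.13 in NZO and -0.38 in the others (difference -3.76 ± 0.49, adjusted p = 5.43e-08). Its copies in the Serpina1 cluster are similar, which makes the assignment of reads uncertain.

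Moxd1, a male-biased monooxygenase-like protein, had 22.6, 1003 and 5142 in NZO on chow and 0, 6.48 and 317 on high fat. In the others the medians were 10.99 and 32.7, with CAST, PWK and WSB high (7133, 1738 and 716). The response was -5.70 against 0.33 (difference -6.03 ± 0.81, adjusted p = 7.31e-08). Susd4, a complement regulator, was apart and lower, at 6.94, 67.5 and 278 against 9.16, 339 and 1565 (-2.37 ± 0.17). Its NZO median was 188 on chow and 34.6 on high fat, while that of the others was 360 and 301, a difference in response of -2.2 ± 0.34 (adjusted p = 2.12e-06). Cyp7b1, which hydroxylates oxysterols, was 3.82-fold lower (313, 1247 and 4176 against 238, 5654 and 21925), with B6 lower by median (1049).

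Of 10 female-biased P450 genes 6 had a more positive diet response in NZO and the other 4 were not called. Cyp2b9 had 0, 3.83 and 112.1 on chow and 12.5, 640 and 1485 on high fat in NZO, and 0, 1.30 and 3882 and then 0, 1.16 and 2329 in the others. The response was 6.14 against 1.02 (difference 5.12 ± 0.71, adjusted p = 1.53e-07). NZO high-fat replicate 4, at 12.5, was the one high-fat animal within the chow range for Cyp2b9, and it had the highest Moxd1 of its group. Cyp2a4, a steroid hydroxylase, went from a median of 3.42 to 277 in NZO and from 58.6 to 39.6 in the others (difference 5.25 ± 0.70, adjusted p = 5.43e-08). Cyp3a41a was apart and higher, at 16.9, 1012 and 12771 against 0, 5.08 and 1599 (6.06 ± 0.40), and its response of 2.53 against 0.28 did not pass the test of the difference (adjusted p = 0.0531).

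The female-biased A1bg and Acot3 had medians under 7 on chow in NZO. A1bg, a plasma protein of unknown role, was apart and had NZO medians of 2.07 on chow and 51.6 on high fat against 0.920 and 0.968 (difference in response 3.49 ± 0.55, adjusted p = 3.44e-06). Acot3, a peroxisomal thioesterase, had 6.62 and then 81.7 against 5.63 and 4.06 (4.28 ± 0.79).

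**Figure D5:**
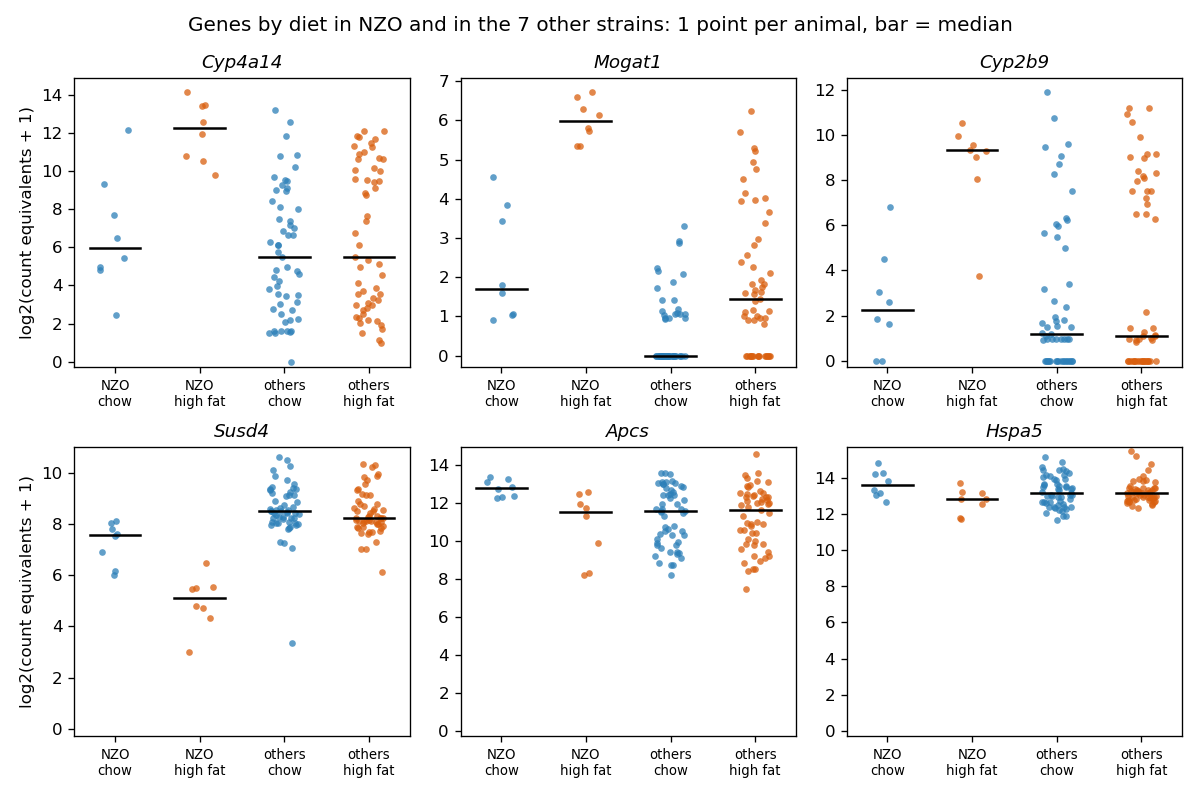
Count equivalents of 6 genes in NZO and in the other strains on chow and on the high-fat diet, 1 point for each animal, on a log axis. The median response in NZO was upward for Cyp4a14, Mogat1 and Cyp2b9 and downward for Susd4, Apcs and Hspa5, and the difference from the other strains was called for each.

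Among genes of the growth hormone axis and liver-secreted factors, 5 of 19 were higher and 6 lower (median -0.02), where 23.6% and 21.7% of all genes were. Igfbp2 has been described. Igf1, the main growth factor secreted under growth hormone, was 1.22-fold higher, and Igfals, which stabilizes it in plasma, was 1.53-fold lower (156.5, 355 and 535 against 164.9, 539 and 1310). The growth hormone receptor gene Ghr did not pass the test (-0.02 ± 0.07). Hamp2, a copy of the iron hormone hepcidin, was at 124.9, 1788 and 7256 against 4.89, 281 and 5083 (2.71 ± 0.41, adjusted p = 1.54e-08), and PWK was as high, at a median of 2145. Angptl6 was apart and 2.02-fold lower.

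Drug metabolism genes were more often lower: 11 of 24 against 5 higher, with a median of -0.21 (2 higher on chow). Cyp3a11, the main P450 of drug oxidation in mice, was at 28.02, 1343 and 4869 against 125.8, 3485 and 34938 (-1.34 ± 0.27, adjusted p = 1.31e-05, with -0.88 on high fat). Cyp2c29 was 2.85-fold lower and Cyp2e1, which oxidizes ethanol, 1.48-fold lower. Cyp2c39, a relative of Cyp2c29 outside the list, was apart and higher, at 545, 2220 and 4458 against 3.24, 86.2 and 3937 (4.26 ± 0.21, adjusted p = 1.08e-36). The Cyp2c genes are close copies.

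In bile acid synthesis and transport 3 of 18 were higher and 6 lower, where 23.6% and 21.7% of all genes were. None was higher against the 4 classical strains. Cyp39a1, an oxysterol hydroxylase, had 0, 1.87 and 4.38 count equivalents in NZO against 0, 48.3 and 897 (-4.05 ± 0.21, adjusted p = 1.51e-35), and PWK was as low at a median of 1.28. Abcb11, the bile salt export pump, was 1.48-fold lower, and AJ was lower still by median (2392 against 2729). Cyp7a1, the rate-limiting enzyme of the classic pathway, did not pass the test (0.24). Abcc3, an exporter toward blood, was 0.84 ± 0.15 higher against all 7, but -0.80 against the 4 classical strains (adjusted p = 8.03e-06). The medians of CAST and WSB were 25.9 and 98.5.

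Methionine and one-carbon metabolism had 7 of 15 members higher and 2 lower. Bhmt, which remethylates homocysteine with betaine, was at 13231, 42137 and 65727 against 3573, 15518 and 47718, a 2.30-fold difference (1.2 ± 0.14, adjusted p = 4.27e-13). Mat1a, which makes S-adenosylmethionine, and Shmt1, which links serine and folate, were 1.70-fold and 1.73-fold higher. Ahcy, which hydrolyses S-adenosylhomocysteine, was 2.17-fold lower, and NOD was lower still by median (2294 against 3099).

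Genes reported as candidates for obesity or diabetes in NZO crosses were read in liver alone. Zfp69, a zinc finger protein, was at 1.22, 6.41 and 8.84 against 2.76, 11.6 and 29.8 (-0.83 ± 0.15, adjusted p = 8.70e-07), and NZO had the lowest mean. Pctp, which transfers phosphatidylcholine, had NZO medians of 205 on chow and 704 on high fat, with no overlap between the groups (78.8 to 382 and 587 to 955), against 140 and 160 in the others (difference in response 1.75 ± 0.31, adjusted p = 6.48e-05). Lepr, the leptin receptor, was 0.74 ± 0.28 higher, with -0.22 on chow and 1.69 on high fat. It lost its call without NZO chow replicate 5 (adjusted p = 0.0620), chow replicate 2 (0.0732), high-fat replicate 1 (0.0559) or high-fat replicate 6 (0.0584). Nnt, which is mutated in B6, was at 500, 987 and 1317 in NZO and at a median of 393 in B6 (0.35 ± 0.05 against all 7, and 0.11 on chow alone, adjusted p = 0.321). Ifi202b has been described.

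Complement genes had 6 members higher and 10 lower of 20. On chow 8 were higher and 3 lower, where 17.6% and 17.1% of all genes were. On high fat 3 were higher and 12 lower, where 20% and 17.9% of all genes were. Over both diets 6 were lower against the 4 classical strains, or without WSB among the others. C6, of the membrane attack complex, was at 694, 1270 and 3481 against 645, 3510 and 27366 (-1.38 ± 0.10, adjusted p = 1.89e-25), and C7, of the same complex, was apart and 2.55-fold lower. Mbl2, a lectin that starts the pathway, was apart and 1.77-fold higher. Hc, complement component 5, whose protein AJ and NOD lack by mutation, was expressed in NZO at 5737, 7939 and 15059 and at medians of 2646 in AJ and 2490 in NOD. It was 0.33 ± 0.07 higher than the 7, -0.28 against the 3 wild-derived strains (adjusted p = 0.000862) and 0.07 on high fat alone (adjusted p = 0.635). The diet response was less positive in NZO for 12 of the 20 and more positive for 1, where 4.77% and 6.1% of all genes were.

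Acute phase proteins, which the liver secretes in inflammation, had 1 of 23 members higher and none lower over both diets (median 0.08, and 0 to 4 higher with 1 NZO animal left out) and differed with diet. Their median difference was 0.56 on chow, with 13 members higher, and -0.51 on high fat, with 11 lower, beside 17.6% of all genes higher on chow and 17.9% lower on high fat. The diet response was less positive in NZO for 17 of the 23 (11 with no filter on low values), where 4.77% of all genes were. Apcs, serum amyloid P, was at 4902, 7014 and 10400 on chow and 296, 2927 and 6065 on high fat in NZO, against 292, 2963 and 12083 and then 174.2, 3124 and 23938 in the others. The response was -1.97 against 0.00 (difference -1.97 ± 0.50, adjusted p = 0.00578). Fgb, a fibrinogen chain, and Itih4, a protease inhibitor, differed in response by -1.03 ± 0.24 and -1.18 ± 0.27. The NZO ranges on the 2 diets overlapped for Apcs and Fgb, and for Itih4 all chow animals (50307 to 72240) lay above all high-fat animals (11370 to 49842).

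These responses rested on few animals. Without NZO high-fat replicate 5 or replicate 8, which had the lowest Apcs (312 and 296), 7 acute phase genes had a called difference in place of 17. Without NZO chow replicate 1, 2 or 6 there were 10, 9 and 10. NZO chow replicate 2 had the highest Saa3 (10191) and Lcn2 (11182) of its group, 2 genes strongly induced in inflammation, and the lowest Mx1 and Kdr. Over all genes, the counts of 825 and 645 became 505 and 313 without high-fat replicate 5 and 509 and 304 without replicate 8. The lower count was 426 without high-fat replicate 6, 400 without chow replicate 6 and 350 without chow replicate 2. With values scaled to the sum of all genes in place of the upper quartile, the median difference in response moved from 0.00 to 0.13 and the split to 1770 against 253. Of the acute phase genes, 15 then had a less positive response.

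Genes of the unfolded protein response, which relieves stress of the endoplasmic reticulum, had few called members over both diets, 1 of 19 higher and 1 lower. On chow 7 were higher and 1 lower, where 17.6% and 17.1% of all genes were. On high fat none was higher and 7 were lower, where 20% and 17.9% of all genes were. The diet response was less positive for 9, where 4.77% of all genes were. The 9 fell to 2 without NZO high-fat replicate 5 or 8, and to 3 without high-fat replicate 6 or chow replicate 2. The count was 4 without chow replicate 1 or 6 and 5 without high-fat replicate 1. It was 4 under scaling to the sum and 3 with no filter on low values. Hspa5, the main chaperone of that compartment, was at 6387, 12367 and 28912 on chow and 3362, 7176 and 13224 on high fat in NZO (difference in response -0.95 ± 0.32, adjusted p = 0.0411). Its call was lost on leaving out any 1 of 8 animals: high-fat replicates 1, 5, 6 or 8 and chow replicates 1, 2, 3 or 6.

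Clock genes barely differed: 1 of 16, Cry2, was lower, with a small difference (-0.25 ± 0.10) whose call was lost in 7 of the 16 leave-one-out fits. Of 9 pericentral hepatocyte markers 5 were lower and none higher (median -0.37), among them Cyp1a2 and Cyp2e1, and of 9 periportal markers 5 were higher and 2 lower (3 higher without NZO chow replicate 2). The pericentral marker Glul, glutamine synthetase, did not pass the test (-0.02).

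Bulk RNA cannot tell fewer cells of a type from less RNA in each cell. Of 20 macrophage markers 11 were higher in NZO and none lower, with a median of 0.44. On chow 10 were higher and on high fat 4, where 17.6% and 20% of all genes were, so the high-fat count was at that share. The median difference was 0.53 on chow and 0.49 on high fat. Against the 4 classical strains 5 were higher. Their summed level was 4266, 6622 and 9380 in NZO chow animals against 1562, 4366 and 11185 in the others on chow, and 3795, 4747 and 10563 against 2005, 4477 and 8444 on high fat. Lyz2, lysozyme, was 1.94-fold higher (308, 567.7 and 1147 against 67.5, 327 and 1666). Csf1r, the receptor of the macrophage growth factor, was at 236, 363 and 916 against 99.3, 220 and 729 (0.63 ± 0.11). Clec4f, a marker of Kupffer cells, did not pass the test (0.04). Interferon and antigen presentation genes are expressed in macrophages as well as hepatocytes, and the part of these markers in the differences of those lists was not tested.

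Lymphocyte markers were scarce. Of 17, only 3 were tested and all 3 were lower, among them Cd4 (0, 8.56 and 22.1 against 0, 14.7 and 56.5, -1.06 ± 0.20). None was called lower on chow and all 3 were on high fat, and against the 3 wild-derived strains 1 was lower. The summed level was 61.2, 137.2 and 194 in NZO on chow against 42.95, 125.2 and 1306, and 32.1, 69.4 and 315 against 46.4, 145.1 and 3775 on high fat. Of 12 endothelial markers 6 were lower and 2 higher. Tek, the angiopoietin receptor, was apart at 20.8, 69.3 and 118.9 against 38.4, 103.9 and 187 (-0.65 ± 0.09), and Kdr, a receptor of vascular endothelial growth factor, was 1.5-fold lower. Lyve1, a marker of sinusoidal and lymphatic endothelium, was 1.83-fold higher (on high fat alone 0.47, adjusted p = 0.132), with NOD and PWK higher by median. Of 12 stellate cell and matrix genes 1 was higher and 4 lower.

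Of 9 hepatocyte markers 1 was higher and 3 lower, and their summed level was 602382 to 1168581 in NZO on chow and 515353 to 908629 on high fat, within 446166 to 1422787 in the others. All 10 markers of pancreas acini had NZO medians under 1. Of 7 adipocyte markers 6 had NZO medians under 1, among them Adipoq, Lep, Plin1 and Retn. Only 3 of the 7 were tested: over both diets Lipe, hormone-sensitive lipase, was higher and Adrb3, an adrenergic receptor, lower, on high fat 2 were higher, and Lipe and Cfd, adipsin, had a more positive diet response, calls that were lost without any 1 of several NZO animals. The summed level of the 7 was 39.1, 97.9 and 131.7 in NZO on chow against 42.9, 93.5 and 186 in the others, and 73.7, 138.9 and 231 against 31.1, 90.7 and 557 on high fat. The part of these markers in the result for the storage genes was not tested. Of 6 red cell genes 3 were higher (1 on high fat, and 1 higher and 1 lower against the 4 classical strains), with Alas2, the first enzyme of red cell heme synthesis, at 647, 1194 and 1502 against 40.96, 590 and 1884 (1.58 ± 0.12). Their summed level was 3281 to 6639 in NZO on chow against 506 to 12199 in the others, and 1977 to 6459 against 445 to 13011 on high fat.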

How the data were processed

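Liver mRNA of founder males was sequenced from TruSeq libraries. The submitters' processing notes name CASAVA 1.8.0, Bowtie 0.12.8 and RSEM 1.2.1 with the builds NCBIM37 and mm9, and, per the name of the deposited table, the authors aligned each founder's reads to its own strain's genome. The deposited values are a normalized signal, and in every column the 75th percentile is 1. After multiplication by a constant found for each animal, 82.6% of values below 20.5 lay within 0.1 of a whole number on average. Count equivalents use the median of these constants, 114.9425, for all animals. The test planned for such values was used, limma 3.58.1 in R 4.3.3 with a trend, on log2(count equivalents + 1). Genes needed 10 count equivalents in 8 animals (13527 of 24965). The model had a mean for each of 16 groups of strain and diet, and p-values were adjusted by the Benjamini-Hochberg method at 0.05. Replicate numbers only name animals.

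Named genes were the 12 largest increases and 12 largest decreases among apart genes with 50 or more count equivalents, the 6 smallest p of the diet contrast, up to 4 called members of each list with the smallest p and further members that show a list's range, and reported candidate genes. Other genes, such as Slfn5, Unc45b, Scarb1, Vldlr and the remaining Gstm genes, were chosen after their values were seen. The strain comparison and the gene lists were chosen with earlier results of these data known. Promoters came from the RefSeq table on GRCm38.p6, and the order of the tested genes from GENCODE M21. The fit was tested on simulated data. Some genes that the rule names are not reported here.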

Additional observations from a re-analysis of the deposited data

Results flagged for a closer look

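Of the genes described, 45 had a diet response that differed between NZO and the mean of the other strains by limma's test of that difference (log2, high fat minus chow). The difference was above 2 for Cyp2a4 5.25, Cyp2b9 5.12, Cyp4a14 4.79, Acot3 4.28, Cyp4a10 3.96, A1bg 3.49, Acot1 2.76, Mogat1 2.53, Cidea 2.51, Cidec 2.50, Acot2 2.49 and Cyp3a41b 2.45. It lay between 1 and 2 for Lepr 1.91, Cyp39a1 1.87, Pctp 1.75, Abcc3 1.58, Pck1 1.57, Cyp2c39 1.54, Cfd 1.403, Pparg 1.28, Acacb 1.17, Elovl5 1.12 and Ly6e 1.04, and below 1 for Cd36 0.95, Cpt1a 0.70, Lipe 0.64, Fbp1 0.52, Mbl2 0.51 and Nnt 0.49. It was below -1 for Moxd1 -6.03, Serpina1e -3.76, Saa3 -3.53, Lcn2 -3.09, Susd4 -2.2, Apcs -1.97, Slfn5 -1.25, Itih4 -1.18 and Fgb -1.03. The smaller negative differences were Hspa5 -0.95, Cyp2d9 -0.83, C6 -0.82, Hc -0.52, Apoa1 -0.48, H2-D1 -0.45 and Scarb1 -0.32. The call was lost for Scarb1, Cd36, Apoa1, Cyp3a41b, H2-D1, Saa3, Lcn2, Lipe, Cfd and Hspa5 on leaving out at least 1 NZO animal.

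In 21 of 246 NZO groups of 8 animals (each described gene on each diet) 1 animal lay far from the others of its group by its gap to the nearest, a distance that chance gives in about 1 of 20 groups. NZO chow replicate 6 lay far off, at 1.02 for Adipoq. NZO high-fat replicate 4 lay far off, at 7.19 for Angptl6, 12.5 for Cyp2b9, 498.4 for Cyp3a11 and 316.6 for Moxd1. NZO high-fat replicate 3 lay far off, at 1.29 for C7 and 6.43 for Gstm2. NZO high-fat replicate 7 lay far off, at 0 for Cd4. NZO high-fat replicate 1 lay far off, at 915.6 for Csf1r. NZO chow replicate 3 lay far off, at 493.6 for Cyp1a2 and 2.42 for Cfd. NZO chow replicate 8 lay far off, at 28 for Cyp3a11. NZO chow replicate 2 lay far off, at 184.6 for Irf7, 29.3 for Kdr, 25.7 for Mx1 and 20.8 for Tek. NZO high-fat replicate 5 lay far off, at 177.9 for Irf7, 18.3 for Oas1a and 52.3 for Rsad2. NZO chow replicate 7 lay far off, at 458.8 for Pnpla3. NZO high-fat replicate 8 lay far off, at 240.1 for Usp18.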

How the results depend on the processing

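No paired analysis was possible because replicate numbers only name animals. Leaving out each NZO male in turn gave 3063 to 3160 higher and 2753 to 2917 lower genes, moved the apart counts by less than 1.5 times, and gave 505 to 988 and 304 to 870 for the diet response, with the extremes without high-fat replicates 5 and 8 and chow replicates 7 and 4. Apart genes numbered 282 higher with no filter and 1.1e+02 (rounded) with a filter of 100 count equivalents, which left 1916 higher and 1817 lower genes. On chow alone 88 were apart and higher and 83 lower, and on high fat alone 94 lower. Asking for more than 1.2-fold left 1148 higher and 908 lower genes, and asking for more than 1.5-fold from each strain left 96 and 37 apart. Scaling to the sum of all genes gave 1770 and 253 for the diet response. The stricter filter tests fewer genes, having no filter tests more, and the fold limits ask for more; the other causes were not tested.

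Some strain differences changed sign. Against the 4 classical strains Abcc3 was -0.80, Cyp2f2 0.047 and C9 0.027, and against the 3 wild-derived strains Ighm was 0.23, Hc -0.28 and Glo1 0.083. On chow alone Kbtbd11 was -0.39, Cyp2b9 -0.17, Ighm 0.030, Lipe -0.019, Lepr -0.22, Fads2 -0.48, C9 0.17, Acot2 -0.11, Acacb -0.059, Acot3 -0.49 and Gstp1 0.19. On high fat alone Pck1 was 0.20, Steap4 -0.21, Asns -0.38, Birc5 0.067, C3 -0.050 and Por 0.090. The cause was not tested.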
